A study of Mus musculus with 4 samples.

Results

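Catecholamines and serotonin are made and broken down by a short chain of enzymes, and 8 genes of that chain are described here in single cells of mouse pancreatic islets. The genes were Th, Ddc, Gch1, Slc18a2, Tph1, Tph2, Maoa and Maob. They were taken by symbol from the 21594 gene symbols of the deposited matrices, and all 8 had at least 1 count in each of the 4 samples. They were listed with earlier results of these data known, among them a lower Th count in mutant beta cells. Their levels and their differences between mutant and control beta cells are therefore given as a description.

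Tyrosine hydroxylase (Th) turns tyrosine into L-DOPA, and aromatic L-amino acid decarboxylase (Ddc) turns L-DOPA into dopamine. Ddc also completes serotonin synthesis after tryptophan hydroxylase, which is encoded by Tph1 outside the brain and by Tph2 in neurons. Both kinds of hydroxylase need the cofactor tetrahydrobiopterin, whose synthesis starts with GTP cyclohydrolase (Gch1). The vesicular monoamine transporter (Slc18a2) packs the amines into granules, and the monoamine oxidases Maoa and Maob degrade them. Beta cells are known to store dopamine and serotonin beside insulin, and both amines are known to act on insulin release.

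Islets of 2-month-old mice were dissociated and their RNA was counted per cell with unique molecular identifiers (UMIs) by a droplet method. The 2 mutant samples carried floxed alleles of Atf4, which encodes a transcription factor induced by cell stress, together with the Ins1Cre driver, which acts in insulin-producing cells (Atf4F/F; Ins1Cre). The 2 control samples carried the floxed alleles without Cre (Atf4F/F). The driver was present in the mutants alone, so its effect and that of Atf4 loss cannot be told apart. Each sample was a pool of 2 males and 2 females by the design text, or of 3 to 4 mice by the protocol, so the spread between samples is that between pools. Cells with and without a tdT reporter were run together.

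The matrices held 11114 barcodes with 63545861 UMIs, and 6995 cells were kept. There were 375 barcode sequences that occurred in more than 1 library. Cells were classed by the share of their UMIs that came from hormone genes, and none of the 8 genes was used for this. Beta cells, with at least 15% insulin UMIs and under 1% of each other hormone, numbered 765 and 846 in mutants 1 and 2 and 1254 and 1097 in controls 1 and 2. There were 757 alpha, 295 delta and 109 PP cells over the 4 samples, and 1136 cells with insulin and another hormone were set apart. The median UMI count was 7518.5 in beta, 4005 in alpha, 3033 in delta and 3808 in PP cells. The labels did not hold equally for both mutants. Atf4 (chromosome 15, 80255184 to 80257541, plus strand, GRCm38) stood in beta cells at 2.70 UMIs per 1e6 UMIs of the class sum (CPM) in mutant 1, 121 in mutant 2, 336 in control 1 and 368 in control 2. Results for mutant 2 are therefore also given apart.

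Tyrosine hydroxylase had its highest level in beta cells. Th (chromosome 7, 142892752 to 142931128, minus strand) was counted at 33.2 CPM in beta cells of mutant 1, 40.0 in mutant 2, 60.6 in control 1 and 60.9 in control 2. In alpha cells it stood at 2.95, 2.35, 2.31 and 3.26 CPM in the same order, which rests on 11 UMIs in all. All 4 beta values lay above all alpha values, and the mean of beta cells was 48.7 ± 14.2 CPM against 2.72 ± 0.466 (SD, n = 4). Delta cells, with 11 Th UMIs, ranged from 0 to 14.7 CPM and overlapped alpha cells. PP cells held 0 Th UMIs of 658067, which allows up to 4.56 CPM at a limit of 3 counts.

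The promoters of Th and of Slc18a2 are shown because these were the only members whose RefSeq promoter held the full cAMP response element TGACGTCA, the site known to be bound by the CREB and ATF family to which Atf4 belongs. The sequences are from GRCm38.p6, read 5′ to 3′ on the strand of the gene, with that element in capitals. The Th stretch covers the 100 bases before the transcription start (chr7:142899996-142900095, minus strand), and the Slc18a2 stretch covers 100 bases before and 10 after it (chr19:59260778-59260887, plus strand).
Th: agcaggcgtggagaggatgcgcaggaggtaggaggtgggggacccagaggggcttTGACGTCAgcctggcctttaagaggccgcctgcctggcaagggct
Slc18a2: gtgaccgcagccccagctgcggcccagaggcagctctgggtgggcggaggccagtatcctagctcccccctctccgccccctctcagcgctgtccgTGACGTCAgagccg

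In Th the element lay at bases −45 to −38 from the start, and in Slc18a2 at −4 to +4 with no base numbered 0. Promoter windows of 300 bases, 250 before and 50 after the start, were found for 7 members in 9 windows, and Maob had no entry. TGACGTCA was in 1.79% of the 32851 promoter windows of the table, searched on both strands. Its core, TGACG, which lies inside the full element, was in 20.8% of all windows and in those of Gch1, Tph1 and Maoa besides Th and Slc18a2. TGATGNAA, the composite element of C/EBP and ATF factors, was in 3.97% of all windows and, among the members, in that of Tph2. The Ddc windows held none of the 3. These are matches of letters and say nothing of binding.

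Ddc and Maob were also highest in beta cells. Ddc (chromosome 11, 11814101 to 11898144, minus strand) stood in beta cells at 705, 651, 583 and 687 CPM in mutants 1 and 2 and controls 1 and 2, and in alpha cells at 330, 461, 506 and 420 CPM. The beta and alpha values did not overlap, and the means differed by 1.53-fold. PP cells ranged from 30.1 to 285 CPM, all below alpha cells, and overlapped delta cells, which ranged from 55.2 to 149 CPM. Single cells held most Ddc UMIs of 3 delta sums, 25 of 36 in mutant 1, 52 of 71 in mutant 2 and 18 of 24 in control 2. Ddc was found in 9.49% of delta cells (6.4 to 13.4) and in 9.40% of endothelial barcodes (4.79 to 16.2), at median depths of 3033 and 2104 UMIs. The share was thus at the level of endothelial barcodes, but no endothelial barcode held more than 4 Ddc UMIs. The delta cells with 25, 52 and 18 lay above that, and what these cells were was not tested. The antisense gene 1700042O10Rik overlaps Ddc and had 22 UMIs in the kept cells against 35625 for Ddc. The strand used in counting is not given in the sources used here, so reads of the pair cannot be told apart with certainty.

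Maob (X chromosome, 16709282 to 16817366, minus strand) stood in beta cells at 169, 179, 202 and 192 CPM in the same order of samples. Alpha cells held 82.7, 97.1, 109 and 103 CPM, below every beta value. Delta cells held 22.1 to 39.8 CPM, below every alpha value, and overlapped PP cells. The neighbouring Maoa (X chromosome, 16619698 to 16687818, plus strand) did not share this order. Maoa stood at 12.04, 8.72, 9.06 and 8.23 CPM in beta cells and at 12.8, 21.2, 23.1 and 22.8 CPM in alpha cells. Alpha cells had the highest mean, 19.97 ± 4.86 CPM against 9.51 ± 1.72 in beta cells (SD, n = 4), with every alpha value above every beta value. With hormone genes left out of the totals the alpha and beta values overlapped, at 17.4 to 31.4 and 13.9 to 18.8 CPM. Its delta and PP values, from 28 UMIs, overlapped both neighbours in the order.

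Gch1 (chromosome 14, 47153895 to 47189413, minus strand) had its highest levels in beta and delta cells. It stood at 219, 257, 250 and 227 CPM in beta cells and at 240, 201, 224 and 195 CPM in delta cells, and these values overlapped. With hormone genes left out of the totals they did not: beta cells then held 343 to 430 CPM and delta cells 267 to 330 CPM. Alpha cells, at 126, 151, 97.0 and 122 CPM, lay below all delta values and overlapped PP cells, at 78.9 to 113 CPM. In the same delta cells Th stood at 8.35 CPM and Ddc at 111 CPM over the pooled samples.

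The other 3 members were rare. Slc18a2 (chromosome 19, 59260896 to 59296012, plus strand) had 153 UMIs in beta cells and 31 in alpha cells, with 4.05, 5.96, 2.55 and 2.69 CPM in beta cells and 9.84, 7.05, 4.62 and 8.70 in alpha cells. The means of the 4 hormone classes lay between 3.81 and 7.55 CPM and all neighbours in their order overlapped. Tph2 (chromosome 10, 115078641 to 115185022, minus strand) had 119 UMIs in the hormone classes, 97 of them in beta cells, at 3.82, 1.38, 2.29 and 2.01 CPM. Delta cells had the highest Tph2 mean, from 12 UMIs and with 0 in mutant 2, and overlapped the other classes. Tph1 (chromosome 7, 46644641 to 46672537, minus strand) had 11 UMIs in all hormone classes, 9 in beta and 2 in alpha cells, too few to order them.

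**Figure D1:**
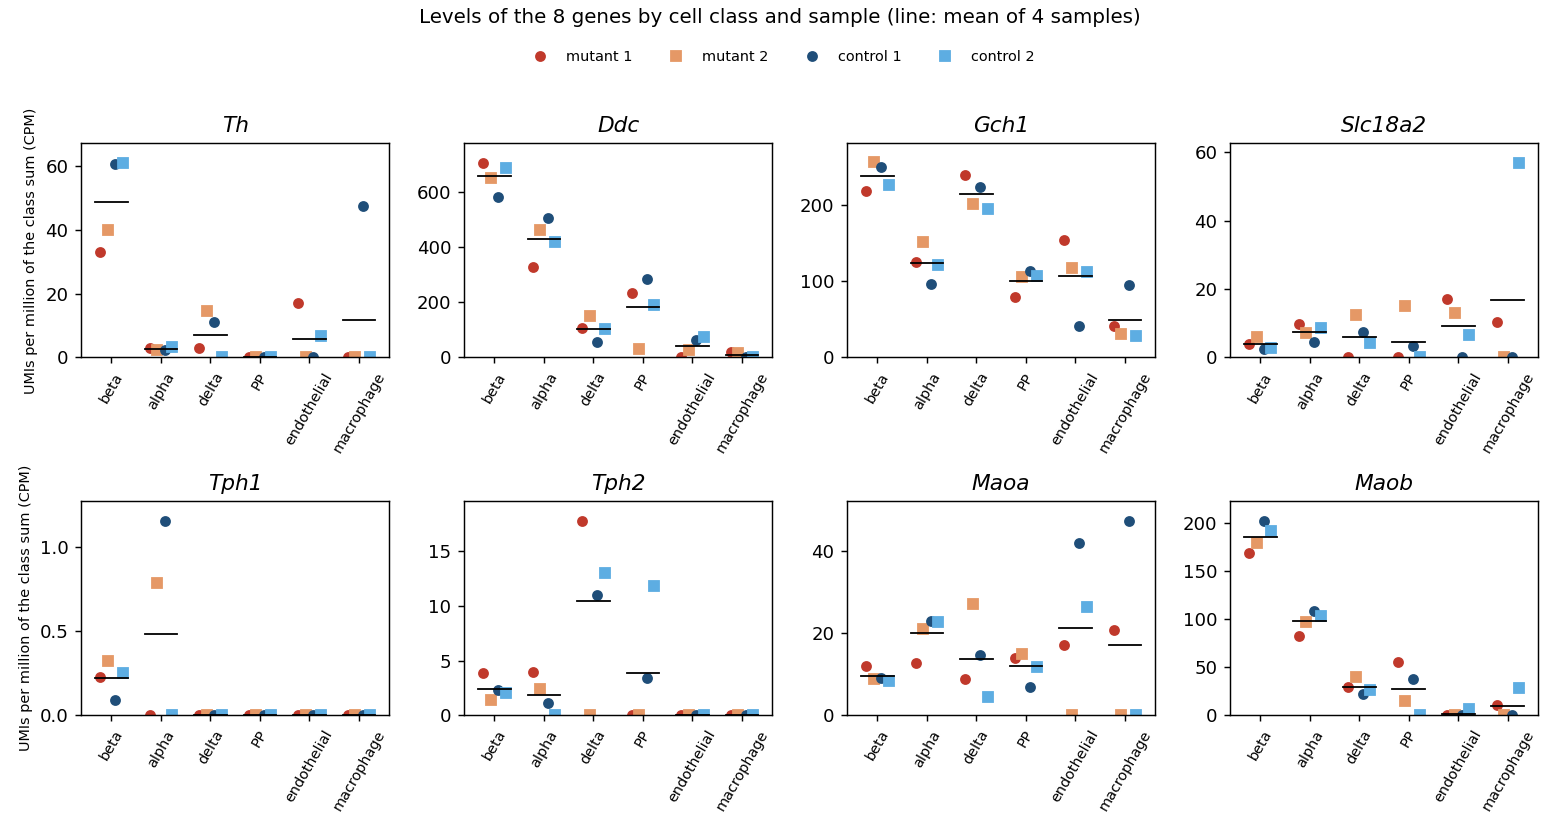
Level of each gene (vertical axis, CPM, a separate scale for each gene) by cell class, with 1 point for each of the 4 samples and a line at their mean. Th, Ddc and Maob are highest in beta cells, Gch1 overlaps between beta and delta cells with hormone UMIs in the totals, and endothelial and macrophage points rest on few UMIs.

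In beta cells the mutants had less Th than the controls in each pairing of samples. After TMM scaling Th differed by −0.85 ± 0.14 on the log2 scale (SE, n = 2 per group). Its adjusted p in edgeR's quasi-likelihood test, with Benjamini-Hochberg adjustment over 13464 genes, was 0.0588, so Th did not pass the threshold of 0.05. None of the 8 members passed. The fit called 62 genes, 0.46% of those tested, with 45 higher and 17 lower in the mutants. That split was 149 and 26 without TMM factors, where the median log2 change over all genes was 0.13 in place of 0.01, and 134 and 94 with DESeq2. Without mutant 2, 178 genes were called. Of the 8 members, 7 passed the filter on low counts and Tph1 did not. Th, Slc18a2 and Maob had an unadjusted p under 0.05, as had 1860 genes or 13.8% of those tested. The list was drawn up with this comparison known, so nothing is read from these counts.

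The call for Th was close to the threshold and depended on the setting. Over 21 other settings the log2 change lay between −1.10 and −0.68 and was below 0 in each, and 8 settings gave an adjusted p under 0.05. DESeq2 gave an adjusted p of 0.0021, edgeR without TMM scaling 0.0427 and limma-voom 0.0713. Leaving out mutant 2, the library that kept Atf4, gave −1.06 ± 0.15 with an edgeR adjusted p of 0.0182, and leaving out mutant 1 gave −0.68 ± 0.15 with 0.158. Adjusted p without control 1 was 0.168 and without control 2 was 0.0751 in edgeR. With 1 sample left out, the lone sample of its group is assumed to vary like the other group.

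The other members differed less or varied more between samples. Slc18a2 was higher in both mutants than in both controls, with a log2 change of 0.82 ± 0.31 and an edgeR adjusted p of 0.294, and the change was 0.44 without mutant 2. Maob was lower in both mutants, with −0.30 ± 0.13 and an edgeR adjusted p of 0.359. Ddc changed by −0.02 ± 0.11, Gch1 by −0.12 ± 0.15, Tph2 by 0.14 ± 0.46 and Maoa by 0.14 ± 0.21 on the log2 scale, and in these 4 the groups overlapped. Of the 7 tested members, 3 had groups that did not overlap (Th, Slc18a2 and Maob). Among all genes tested, 47.3% did not overlap, 11.9% with the mutants lower and 35.4% with the mutants higher.

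Several marker lists of other cells moved with the groups in the beta sums. The 7 acinar markers, all detected, summed to 22.6 to 31.5 CPM in mutant and to 87.7 to 152 CPM in control sums. The 8 macrophage markers, all detected, summed to 57.5 to 107 CPM against 135 to 140 CPM, and the 4 delta markers to 219 to 332 CPM against 357 to 611 CPM. The 4 B cell markers summed to 8.21 to 11.5 CPM against 17.7 to 19.97 CPM. The neuron list, whose Snap25 beta cells also express, was detected in all 6 genes and ran the other way, at 369 to 390 CPM in mutant and 333 to 343 CPM in control sums. The 5 duct markers, all detected, were also higher in the mutants, at 208 to 245 CPM against 182 to 199.8 CPM. The part of these cells in the changes was not tested. The 7 markers of beta cells themselves summed to 362763 to 398215 CPM in mutant and to 410912 to 419852 CPM in control sums. In beta cells with under 0.1% of each other hormone and of endothelial, macrophage, stellate and acinar markers, Th differed by −0.90 ± 0.14 with an edgeR adjusted p of 0.0357. That cell choice was made after the data were seen.

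In the other classes no member passed, in any setting that was run. In alpha cells 4 members were tested, and Ddc changed by −0.24 ± 0.18, Gch1 by 0.33 ± 0.18, Maoa by −0.42 ± 0.36 and Maob by −0.25 ± 0.18 on the log2 scale, with edgeR adjusted p between 0.582 and 0.749. The 9 endothelial markers, all detected, summed to 180 to 188 CPM in mutant and 39.1 to 47.3 CPM in control alpha sums, and their part in these values was not tested. That fit called 9 genes or 0.0984% of 9144. Ddc and Gch1 were the members tested in delta and PP cells. Ddc changed by 0.69 ± 0.32 in delta cells and by −0.55 ± 0.46 in PP cells, and Gch1 by 0.01 ± 0.21 and −0.32 ± 0.41. The Ddc value of delta cells rests on the 1 mutant 2 cell with 52 Ddc UMIs. With a hormone limit of 5% of UMIs in place of 2% for these classes, which left 19 Ddc UMIs in mutant 2, it was −0.11. The fits called 3 genes in delta cells, 0.0567% of those tested, and 1 in PP cells, 0.039%. In the PP sums the 4 delta markers, of which Ghsr was at 0, summed to 526 to 840 CPM (mutant) against 2986 to 6661 CPM (control). The 5 alpha markers, all detected, summed there to 5862 to 9143 CPM against 3639 to 4484 CPM, and the part of either was not tested. In delta sums the 7 acinar markers, all detected, stood at 134 to 291 CPM against 415 to 442 CPM. In delta sums the beta, PP, macrophage, stellate and Schwann lists also did not overlap between groups. Nor did the acinar and stellate lists of PP sums and the T cell list of alpha sums. The own markers of alpha cells in alpha sums, and those of PP cells in PP sums, were higher in both mutants than in both controls. Without mutant 2 these fits called 83 genes in alpha, 38 in delta and 20 in PP cells.

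**Figure D2:**
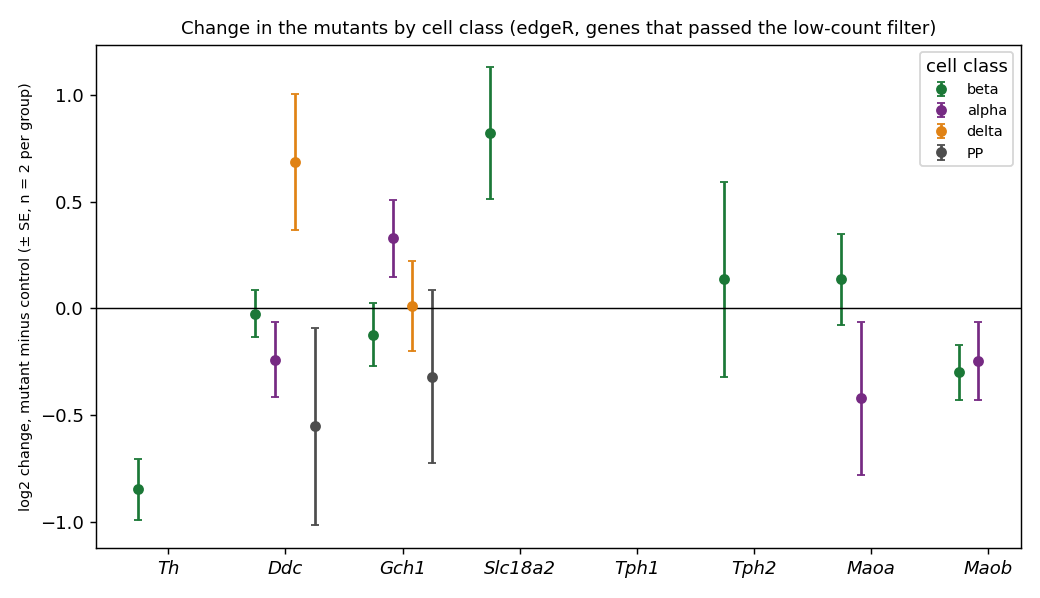
Log2 change of mutant against control (vertical axis) for each gene and cell class that passed the low-count filter, with bars of 1 SE from the edgeR fit (n = 2 per group). Th in beta cells stands at −0.85 and Slc18a2 in beta cells at 0.82, and no value passed an adjusted p of 0.05.

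The difference between the mutant effects in beta and in other cells was tested for members that passed the low-count filter in the joint fit of both classes, a filter that Th passed through its beta counts. It was −0.44 ± 0.18 for Gch1 against alpha cells (edgeR unadjusted p = 0.0181, adjusted p = 0.573), and −0.80 ± 0.31 for Ddc against delta cells (edgeR adjusted p = 0.563), where the mutant 2 delta cell named above weighs on the value and the sign turned with a hormone limit of 5% (0.044). For Ddc, Maoa and Maob against alpha cells it was 0.22 ± 0.16, 0.54 ± 0.42 and −0.05 ± 0.18. For Th against alpha cells, where 11 UMIs stand behind the alpha value, it was −0.72 ± 0.82 with an edgeR adjusted p of 0.933. No member passed in any of these fits, which called 0.339% of genes against alpha, 0.339% against delta and 0.165% against PP cells. The few Th UMIs in alpha cells are read as background below, so this test cannot tell whether a change of Th was particular to beta cells.

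A smaller share of mutant beta cells held a Th UMI when all cells were brought to the same depth. Each cell was thinned to 3000 UMIs and 670 shallower beta cells were left out. In that random draw 42 of 647 beta cells of mutant 1 held Th, 6.49% (95% Clopper-Pearson interval 4.72 to 8.67). The share was 8.23% (6.36 to 10.4) in mutant 2, 14.2% (12.1 to 16.5) in control 1 and 13.2% (11.1 to 15.6) in control 2. The mutant intervals lay below both control intervals in that draw, but the draw itself moves these shares. Averaged exactly over all possible draws, an alternative added after the data were seen, the shares were 8.41%, 9.77%, 14.7% and 13.3% in the same order, with both mutants below both controls. Thinned once to 2000 UMIs, the shares were 6.27% (4.61 to 8.30), 6.43% (4.84 to 8.34), 10.3% (8.64 to 12.2) and 8.91% (7.25 to 10.8), and the mutant intervals overlapped that of control 2. No p is given, since exact permutation of 2 against 2 samples cannot go below 0.33, and intervals cover counting error only. Before thinning, the shares were 24.2%, 22.7%, 28.7% and 30.4%, with median depths of 8772, 8696.5, 6317.5 and 7726 UMIs.

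The background for Th was low. After thinning, 3 of 468 alpha cells, 4 of 149 delta cells, 1 of 33 endothelial and 1 of 29 macrophage cells held a Th UMI. PP cells held it in 0 of 66, which allows a share of up to 4.55%. Before thinning, 1.45% of alpha cells held Th (0.728 to 2.59), at a median depth of 4005 UMIs. The share was 1.71% of endothelial barcodes, 2 of 117 (0.208 to 6.04), at a median of 2104 UMIs. It was 1.41% of macrophage barcodes, 1 of 71 (0.0357 to 7.60), at a median of 2771 UMIs. The alpha share was thus not above that of cells that should lack the gene and is read as background, although few barcodes set that level. The delta share of 3.39% (1.64 to 6.15) overlapped those intervals.

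No other member had both mutant intervals on 1 side of both control intervals in that draw. Ddc was found in 78.4%, 74.8%, 71.6% and 77.3% of thinned beta cells of mutants 1 and 2 and controls 1 and 2, and Gch1 in 41.9%, 47.1%, 48.7% and 47.7%. For Ddc the samples of the groups overlapped, although the interval of mutant 1 (75.0 to 81.5) lay above that of control 1 (68.6 to 74.3). The intervals of Gch1 overlapped between groups. Maob was found in 33.5% and 35.9% of mutant and 39.6% and 40.4% of control beta cells. Both mutants thus lay below both controls for Maob, but with overlapping intervals. As the exact mean over all draws, the Maob shares were 34.9% and 36.5% in mutants and 40.3% and 39.0% in controls. Slc18a2, Tph2 and Maoa were each found in under 3% of cells of every sample in this draw. The exact mean for Slc18a2 was 0.99% and 1.30% in mutants and 0.69% and 0.68% in controls, so both mutants were higher, from few positive cells. In alpha cells Ddc was found in 57.3% of 468 cells, Gch1 in 29.1% and Maob in 28.6%. Gch1 was also found in 43.0% of delta cells and in 11 of 33 endothelial cells.

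**Figure D3:**
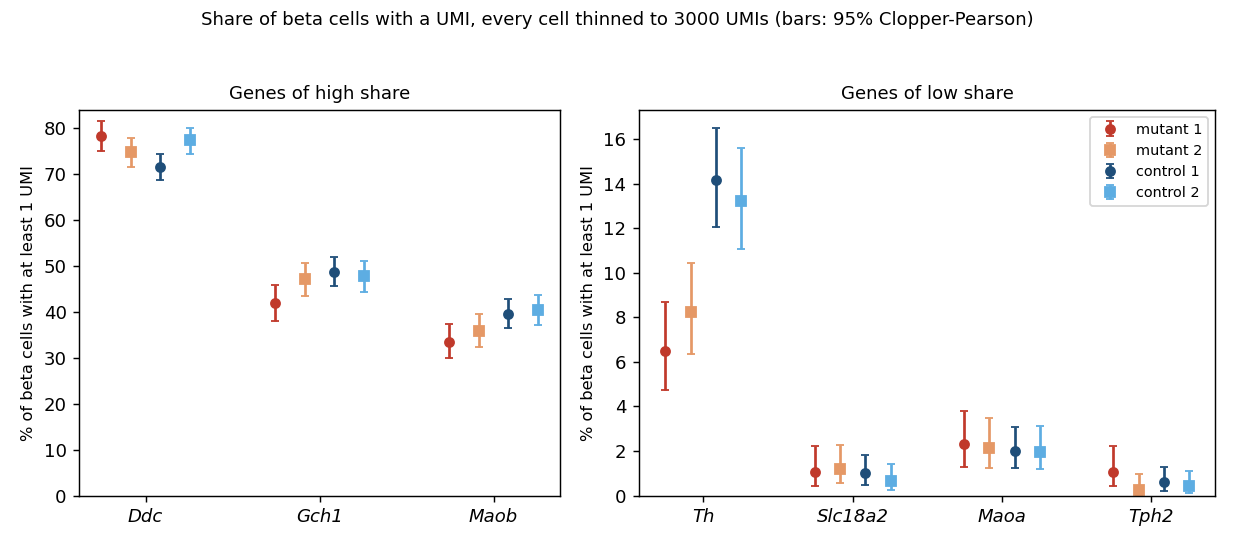
Share of beta cells with at least 1 UMI of each gene (vertical axis, percent, starting at 0) after 1 random thinning of every cell to 3000 UMIs, with 1 point per sample and 95% Clopper-Pearson bars. Both mutants lie at 6.49% and 8.23% for Th and both controls above 13%, while for Ddc mutant 1 is highest, control 1 lowest and the other 2 samples lie between them.

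Deeply counted beta cells differed widely in their Th counts. Among beta cells with over 8000 UMIs, 37.0% of 397 cells of mutant 1 and 32.9% of 453 cells of mutant 2 held Th, against 48.7% of 515 and 47.6% of 534 cells of controls 1 and 2. The highest count in a cell was 15, 8, 9 and 17 UMIs in the same order. The 10% of cells with most Th held 53.3% and 55.8% of Th UMIs in mutants 1 and 2, and 43.1% and 48.2% in controls 1 and 2. The same share was 27.0%, 28.2%, 29.9% and 26.6% for the more abundant Ddc, and 62.1%, 80.6%, 75.3% and 74.2% for the rarer Maoa. It thus depends on the level of a gene, and these cells were not thinned, so nothing is read from the difference between groups. After thinning, the variance of Th over its mean was 1.22, 1.22, 1.23 and 1.33, where 1 is the value for pure counting. That of Ddc was 1.36, 1.55, 1.48 and 1.46. At equal unevenness this ratio rises with the mean count, which was higher for Ddc, so the values do not rank the genes by unevenness.

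Th and Ddc were found together about as often as the product of their shares gives. In control 1, 94 thinned beta cells held both Th and Ddc, where the product of the shares gives 100.9, and in control 2 there were 92 against 92.8. In the mutants there were 29 against 32.9 and 45 against 45.6. Th and Gch1 were found together in 16, 32, 69 and 68 cells of mutants 1 and 2 and controls 1 and 2, against products of 17.6, 28.7, 68.7 and 57.3. Th and Slc18a2 shared 2, 1, 2 and 2 cells, against products of 0.454, 0.741, 1.42 and 0.792, so the count was above the product in each sample but rests on 7 cells. Cells of 1 sample are not replicates, so these counts carry no test.

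Mutant 2 held beta cells with and without Atf4 UMIs, and the Poisson intervals of Th overlapped between them. Such intervals take UMIs as independent counts and leave out the spread between cells. They are therefore too narrow to show that groups of cells differ. Before thinning, the variance of Th over its mean was 2.42 in all mutant 2 beta cells, differences in depth included. Among its beta cells with over 8000 UMIs, Th stood at 41.3 CPM (95% Poisson interval 35.1 to 48.2) in 231 cells with 0 Atf4 UMIs. It stood at 49.6 CPM (37.9 to 63.9) in 86 cells with 1 to 2, and at 38.5 CPM (31.3 to 46.7) in 136 cells with 3 or more. Control cells with 3 or more Atf4 UMIs held 66.8 CPM (61.0 to 73.0) and 65.0 CPM (59.6 to 70.8), above the interval of the mutant 2 cells in the same Atf4 range. Mutant 1 cells with 0 Atf4 UMIs held 35.3 CPM (31.1 to 40.0). Control cells with 1 to 2 Atf4 UMIs held 46.6 and 48.3 CPM, with intervals that overlap mutant 2 in the same range. The few control cells with 0 Atf4 UMIs held 37.5 CPM (12.2 to 87.5) in 13 cells of control 1 and 99.8 CPM (62.5 to 151) in 20 cells of control 2, the latter above the interval of mutant 2 cells with 0.

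Ddc was higher in the cells of mutant 2 with 0 Atf4 UMIs, with a Poisson interval above that of cells with 3 or more. Here too the intervals leave out the spread between cells. Before thinning, the variance of Ddc over its mean was 9.81 in all mutant 2 beta cells, differences in depth included. It stood at 750 CPM (723 to 777) in cells with 0 Atf4 UMIs and at 617 CPM (588 to 648) in cells with 3 or more. In controls, Ddc was higher in cells with 3 or more Atf4 UMIs than with 1 to 2, at 638 against 498 CPM in control 1 and 734 against 620 CPM in control 2. Gch1 in mutant 2 stood at 270 and 267 CPM, and Maob stood at 199 and 179 CPM with overlapping intervals. This is 1 library, and cells with more Atf4 UMIs were also deeper, with a median of 18021 against 15173 UMIs. Sex also moved with Atf4 in this library, as given below, with Ddc at 785 CPM in female and 582 CPM in male beta cells. The parts of Atf4, sex and depth in the values of Th, Ddc and the others were not told apart.

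**Figure D4:**
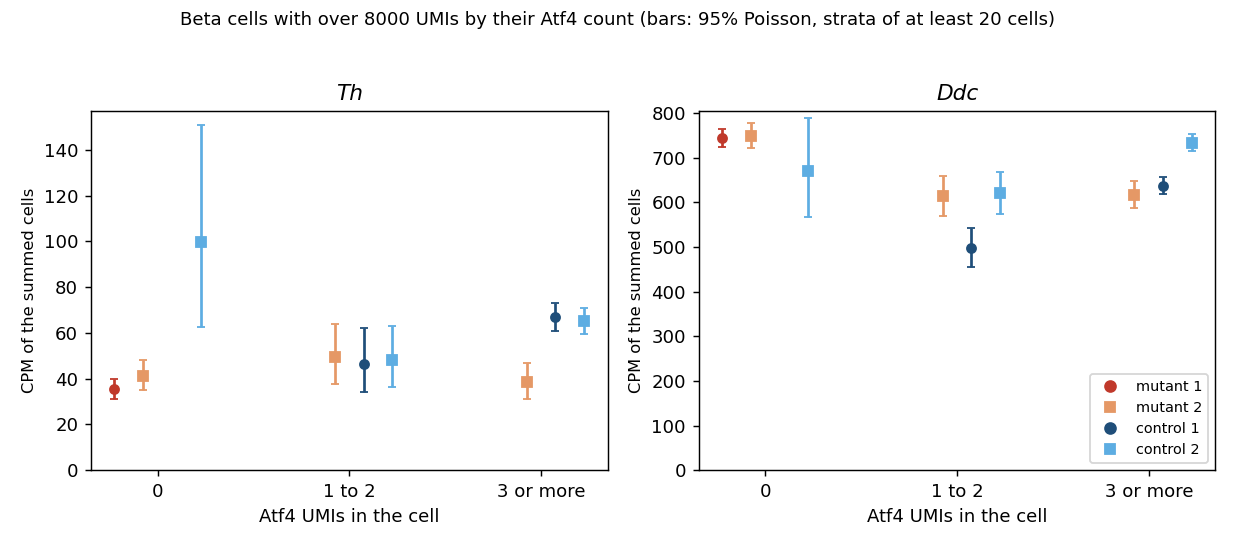
Th and Ddc level (vertical axis, CPM of summed cells) in beta cells with over 8000 UMIs, grouped by the number of Atf4 UMIs in the cell (horizontal axis), with 1 point per sample and 95% Poisson bars for groups of at least 20 cells. For Th, mutant 2 lies at 38.5 to 49.6 in all 3 groups, the controls at 66.8 and 65.0 with 3 or more Atf4 UMIs, and control 2 at 99.8 with 0, from 20 cells. The bars leave out the spread between cells.

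Sex moved with Atf4 in mutant 2. In its beta cells with Xist UMIs and no Y-linked UMI, which mark female cells, Atf4 stood at 7.99 CPM, and in those with Y-linked UMIs and no Xist at 190 CPM. In the controls it stood at 327 and 438 CPM in the female and at 366 and 351 CPM in the male cells. The sexes of the pools were thus unequal in Atf4 loss in that library, and the cause was not tested. Of beta cells with either mark, 52.1% were female in mutant 1, 31.7% in mutant 2, 41.2% in control 1 and 35.6% in control 2.

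Th was lower in both mutants than in both controls in female and also in male beta cells. The female cells held 34.8 and 41.4 CPM (mutants) or 87.9 and 61.6 CPM (controls), a log2 change of −1.10 ± 0.21 with an edgeR adjusted p of 0.0404. The male cells held 27.5 and 36.4 CPM (mutants) or 40.7 and 59.5 CPM (controls), and their log2 change of −0.70 ± 0.24 did not pass (edgeR adjusted p = 0.473). The difference between the sexes was not tested. Control 1 had the widest gap in Th between its sexes, 87.9 against 40.7 CPM. In mutant 1 Atf4 stood at 1.47 CPM in female and 3.64 CPM in male cells, so that library lacked most Atf4 in both sexes. The part of Atf4 in these Th values was not tested.

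Maob, which lies on the X chromosome, was higher in female than in male beta cells in each of the 4 samples. The female cells held 188, 202, 226 and 211 CPM, and the male cells 157, 169, 182 and 168 CPM. Maoa, its neighbour on the X chromosome, did not share this: it was lower in female cells in mutants 1 and 2 and control 1 and higher in control 2. Ddc stood at 785 CPM in female and 582 CPM in male cells of mutant 2, and at 729 against 718 in mutant 1. In control 1 it ran the other way, at 565 against 600, and control 2 held 713 against 682.

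**Figure D5:**
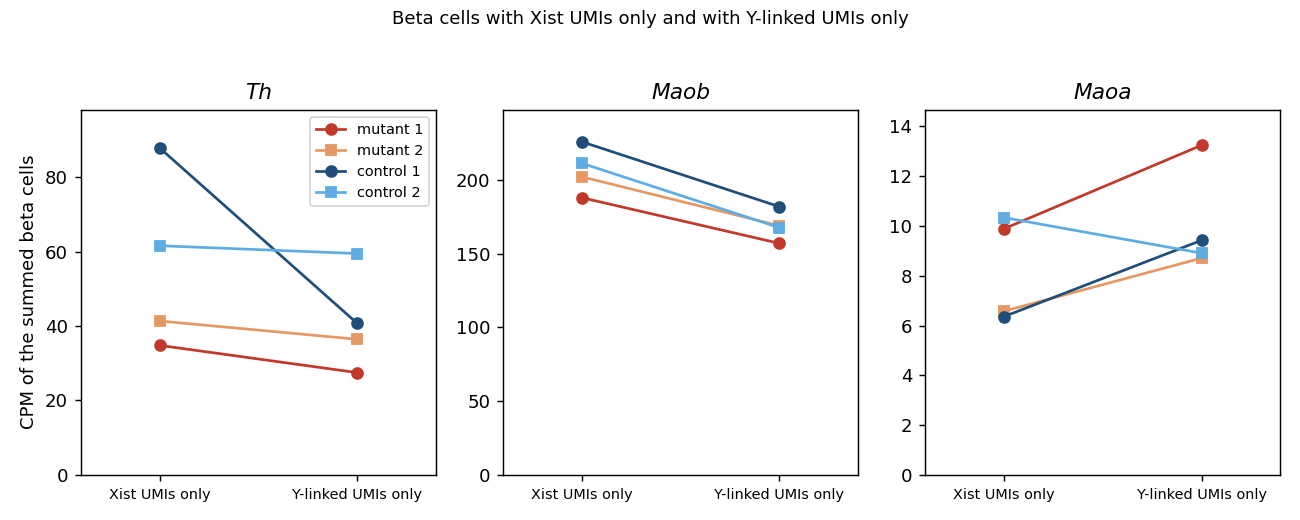
Th, Maob and Maoa level (vertical axis, CPM of summed beta cells, starting at 0) in cells with Xist UMIs only and in cells with Y-linked UMIs only, with a line joining the values of each sample. Maob falls from left to right in all 4 samples, and Th is widest apart in control 1, at 87.9 and 40.7.

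The wider amine pathway was read from 5 lists of other genes, chosen with earlier results known. None of their genes passed in beta cells over all genes (edgeR adjusted p of at least 0.0841, median log2 change of all genes 0.01). Of 7 genes of tetrahydrobiopterin synthesis and recycling all were tested, with a median log2 change of −0.06, and sepiapterin reductase (Spr) had an unadjusted p under 0.05, at 0.32. Of 16 other amine enzymes 9 were tested, with a median of −0.11, and renalase (Rnls), at 0.49, and Comtd1, at 0.60, had such a p. Dbh, which makes noradrenaline from dopamine, had 2 UMIs in all beta cells, and Pnmt, which makes adrenaline, had 0.

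Of 13 transporters of amines and aromatic amino acids 10 were tested, with a median log2 change of −0.16. Slc7a5, the light chain of the transporter that carries tyrosine and tryptophan into cells, stood at 17.4, 34.0, 53.7 and 61.4 CPM in mutants 1 and 2 and controls 1 and 2. Its log2 change was −1.26, with an edgeR adjusted p of 0.11. Mutant 1 held least, and a link to its Atf4 level was not tested. Its partner Slc3a2 changed by −0.44. Slc18a1, the vesicular monoamine transporter known from neuroendocrine cells, stood at 29.1 CPM in mutant 1, 29.99 in mutant 2, 20.3 in control 1 and 20.1 in control 2, a log2 change of 0.43 (edgeR adjusted p = 0.229). Slc6a2, Slc6a3 and Slc6a4, which take up noradrenaline, dopamine and serotonin, had 5, 12 and 4 UMIs in beta cells. Slc29a4, another transporter of this list, had 466 UMIs there and was lower in both mutants than in both controls. The log2 change of Slc29a4 was −0.67 (edgeR adjusted p = 0.348).

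Of 28 amine receptors 24 were in the matrices and 5 were tested in beta cells, with a median log2 change of 0.15. The highest was Adra2a, the alpha-2A adrenergic receptor that inhibits insulin release, at 72.1, 89.2, 79.5 and 110 CPM with overlapping groups. The dopamine receptor Drd2 had 12 UMIs and Drd1 had 0. Of 17 transcription factors known to act on Th in other cells 8 were tested, with a median of −0.08. Nr4a2 stood at 35.0 CPM in mutant 1, 38.0 in mutant 2, 19.0 in control 1 and 22.2 in control 2, a log2 change of 0.71 with an edgeR adjusted p of 0.0841. Nr4a1 changed by 0.84 and Crem by 0.59, while Egr1 changed by −0.52 and Fos by −0.46.

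The pattern of each member over the 16 sums of 4 classes and 4 samples was compared with 6703 genes by Pearson's r of log2(CPM + 1). The 5 genes most like Th were Ero1lb, Phactr1, Cox6a2, Tmtc3 and Gad1, with r from 0.868 to 0.904. For Ddc they were Ffar1, Rangap1, Spc25, Mthfd1 and Skap1, with r from 0.852 to 0.899, and for Gch1 they were Slc24a2, Ppp4r1l-ps, Gng4, Nectin3 and P2ry1, with r from 0.914 to 0.954. For Maob they were Gpd2, Zfp568, Abhd15, Rbm17 and Psmd6, with r from 0.896 to 0.932, and for Maoa Ric8b, Spred2, Leo1, Bcas3 and Tbc1d12, with r from 0.789 to 0.827. Among the members, r was 0.772 for Th and Gch1, 0.643 for Ddc and Maob, and 0.05 for Maoa and Maob. The sums share libraries and differ in depth, so these values describe likeness of levels and carry no p.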

How the data were processed

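The deposited matrices hold UMI counts per gene symbol and barcode, which the authors made before deposit. Per the submitters' processing notes, mm10 and Seurat were used, with no version. Per the labels' protocols, inDrops libraries were sequenced on a NovaSeq instrument and 10% K562 cells were added. Highest counts of 4078 to 4093 lie near the 4096 sequences of 6 bases, so the highest genes may be capped. Whole-library sums of replicates differed beyond sampling noise, with a chi-square of 15.4 (mutants) and 19.3 (controls) for each degree of freedom. These sums take in all barcodes and cell types, so differences in cell make-up enter them, and they do not measure the spread of beta sums.

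A cell was kept with 500 or more genes and a mitochondrial share under 20%. Beta cells had at least 15% insulin (Ins1 and Ins2) UMIs and under 1% each of Gcg, Sst and Ppy. Alpha, delta and PP cells had at least 2% of their hormone, at least 3 times each of the others, and under 15% insulin. Near the limits, 64 cells had 10 to 15% and 83 beta cells 15 to 20% insulin. A further 239 cells with insulin and 1 to 2% of another hormone, and 197 with 2% or more of another hormone but less than 3 times the rest, were left unclassed, against 295 delta and 109 PP cells. Endothelial and macrophage cells had at least 0.5% of their markers. No doublet caller was run. Cells with insulin and another hormone were set apart, and doublets of the same type remain.

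Sums of counts per sample and class were fitted with edgeR 4.0.16 (R 4.3.3, limma 3.58.1) after filterByExpr and TMM scaling, with a threshold of 0.05 after Benjamini-Hochberg adjustment. SEs are the change divided by the square root of F. DESeq2 1.42.0 and limma-voom were alternatives. CPM are UMIs per 1e6 of the class sum. The fits were tested on simulated data. Thinning, shares and figures used Python 3.11.15, scanpy 1.11.5, numpy 2.4.6, scipy 1.17.1 and matplotlib 3.10.9. Positions of genes come from GENCODE vM21 (GRCm38). The members and lists were chosen with earlier results of these data known. The rule for named genes was all members, pathway genes that passed or had the lowest p (4 per list), and the 5 most alike genes per member. For the pathway lists the text departs from it and names the genes with an unadjusted edgeR p under 0.05. Other genes were chosen after their values were seen.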

Additional observations from a re-analysis of the deposited data

How the results depend on the processing

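Over the 372 member changes recomputed under other settings, 339 kept their direction and their side of the threshold, 8 (all Th in beta cells) came under 0.05 and 25 changed sign, none of them past the threshold in either setting. The sign changes came with library totals as the only scaling (Ddc in beta cells 0.094, Maob difference between beta and alpha cells 0.055), with female cells alone (Ddc 0.14, Maoa −0.10) and with limma-voom (Tph2 −0.0035). In delta cells they came with a hormone limit of 1% (Gch1 −0.011) or 5% (Ddc −0.11, Gch1 −0.028), no insulin limit (Ddc −0.14, Gch1 −0.33) and the looser and stricter cell filters (Gch1 −0.028 and −0.057). For differences of effect they came with an insulin limit of 8% (Th beta against alpha 0.20, Ddc beta against delta 0.36), a hormone limit of 5% (Ddc 0.044) and no insulin limit (Ddc 0.13, Gch1 0.23 and, against alpha, Maob 0.037). With 1 sample left out, changes in beta cells ranged from −0.10 to 0.049 for Ddc, −0.31 to 0.028 for Gch1, −0.71 to 0.64 for Tph2 and −0.063 to 0.29 for Maoa, and in delta cells from −0.11 to 0.16 for Gch1. The cause of these changes was not tested.

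Counts of genes called moved by over 1.5 times in many settings. Beta cells gave 175 with library totals, 228 with DESeq2, 34 with no filter on low counts, 119 in female and 8 in male cells, 102 in cells with little of other types, and 43 to 178 with 1 sample left out (178 without mutant 2), against 62. Alpha cells gave 15 with library totals, 109 with no filter, 14 without hormone genes, 19 and 37 with an insulin limit of 8% or none, 37 with stricter cells, 23 with Leiden clusters and 10 to 83 with 1 sample left out, against 9. Delta cells gave 1 with DESeq2 and with looser or stricter cells, 45 with no filter, 0 with hormone limits of 1% and 5%, 40 with no insulin limit and 14 to 38 with 1 sample left out, against 3. PP cells gave 0 with limma-voom and without hormone genes, 15 with no filter, 2 with either insulin setting and 2 to 20 with 1 sample left out, against 1. In alpha cells leaving out either mutant or control 1 moved the count by over 1.5 times, and in delta and PP cells leaving out any sample did. The difference of beta against alpha cells gave 9 with DESeq2, 108 with no filter, 82 and 24 with an insulin limit of 8% or none and 26 with looser cells, against 46. Against delta cells it gave 7 with DESeq2, 15 with a hormone limit of 1%, 23 with no insulin limit and 23 with stricter cells, against 45. Against PP cells it gave 2 with DESeq2, against 21.

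Replicate numbers did not pair the samples: deviations of same-numbered samples correlated at −0.15 in beta, 0.03 in alpha, −0.01 in delta and 0.03 in PP cells. With the replicate block 246, 104, 1 and 0 genes were called in beta, alpha, delta and PP cells, and the adjusted p of Th in edgeR was 0.0123. With the crossed pairing 80, 31, 23 and 17 were called, and the Th value was 0.0425. Leiden clusters gave no delta or PP class under the naming rule, so that setting was not run for them.

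With hormone genes left out of the totals, the log2 ratio of beta to alpha cells rose from 0.94 to 1.22 for Gch1 and from 0.92 to 1.21 for Maob, and that of beta to delta cells for Gch1 from 0.15 to 0.41. The mutant share of beta cells with Th over the control share was 0.54 in 1 random thinning to 3000 UMIs and 0.66 in 1 to 2000. It was 0.65 as the exact mean over all thinnings to 3000 UMIs and 0.65 over those to 2000, both added after the data were seen, and 0.79 with no thinning, where mutant cells were deeper. Depth limits Tph1, Tph2, Slc18a2 and all members in PP cells, and 2 pools per group limit every test.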

Other observations

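Thinned beta cells with and without a Th UMI were also compared within samples, a comparison chosen after the data were seen. With edgeR and the sample as a block, 0 of 8341 genes passed at an adjusted p of 0.05. An unadjusted p under 0.05 was found for 418, about the share that this cutoff gives where no gene differs. No other tool was run on it. The thinning was a separate random draw, with 53, 68, 143 and 116 Th-positive cells in mutants 1 and 2 and controls 1 and 2. The 4 genes with the lowest adjusted p, 0.0659, were Gpx3 (log2 difference −1.10), Txnip (−0.58) and Pyy (−0.52), lower in Th-positive cells in all 4 samples, and Msln (0.92), which was higher in all 4. These genes were picked by their p in the same samples, so the shared direction is no separate evidence. Gpx3 and Pyy were also among the leading genes of clusters made up mainly of cells other than beta cells, and the part of such cells was not tested. In control 1, 67.6% of Th-positive and 34.8% of Th-negative cells with a sex mark were female, and in the other samples the 2 shares were 36.4% and 52.1%, 34.1% and 32.1%, and 34.4% and 37.4%.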
